A study of Mus musculus with 59 samples.

Results

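Metallothionein, heme oxygenase and antioxidant genes were followed through the time course of a mouse myocardial infarction. The list held 9 genes, namely Mt1, Mt2, Hmox1, Nqo1, Gclc, Gclm, Txnrd1, Prdx1 and Sod2, and every probe set of the array annotated to exactly 1 of them was taken, whatever its values. This gave 9 probe sets of 8 genes, out of 12488 probe sets on the array, of which 10833 had 1 gene. Nqo1 had 2 probe sets, 94350_f_at and 94351_r_at, whose suffixes mark designs outside the array's standard rules. The others were 93573_at for Mt1, 101561_at for Mt2, 160101_at for Hmox1, 99649_at for Gclc, 160335_at for Gclm, 99985_at for Txnrd1 and 96042_at for Sod2. Both probe sets listed for Prdx1 are also assigned to Gm21399, so Prdx1 had 0 probe sets of its own and is not followed.

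RNA came from pieces of the left ventricle, 1 piece per Affymetrix array and 59 arrays in all, taken 1 h, 4 h, 24 h, 48 h, 1 week or 8 weeks after surgery. Mice with an infarction gave infarct tissue, from the ventricle between the left anterior descending artery and the apex, and remote tissue, from above that artery. Sham-operated mice gave sham upper tissue, which matches the remote position and is named in the labels as the control of both regions, and, from 1 mouse at each time up to 1 week, sham lower tissue. Each of infarct, remote and sham upper tissue was on 18 arrays, 3 for every time, and sham lower tissue was on 5. The labels name no strain, genotype, age, sex or drug, and do not say how the infarction was made. The number in each array title is taken here as the number of the mouse. Infarct and remote arrays share these numbers, except 1 number of each at 24 h. Up to 48 h the numbers of sham mice and of mice with an infarction lie in separate ranges, so infarction cannot be told apart in those comparisons from anything else that set the 2 ranges of mice apart.

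Metallothioneins are small proteins rich in cysteine that bind zinc and copper and react readily with oxidants. Their genes are switched on by the zinc-sensing factor MTF1 through metal response elements, and also by glucocorticoids and inflammatory signals. Heme oxygenase 1, the product of Hmox1, breaks heme into biliverdin, carbon monoxide and iron, and is abundant in macrophages that clear heme. Hmox1, Nqo1, Gclc, Gclm and Txnrd1 are textbook targets of NRF2, a factor that is held by KEAP1 and released under oxidative or electrophilic stress to bind antioxidant response elements. Sod2 encodes the superoxide dismutase of the mitochondrial matrix, which heart muscle cells hold in quantity.

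Mt1 and Mt2 are neighbours on chromosome 8, with start sites 6471 bases apart, and over the group means each had its highest correlation among the members with the other, so the sequence before each start is shown. The RefSeq windows (assembly GRCm38.p6, plus strand, from 250 bases before to 30 bases after the annotated start) lie at chr8:94172368-94172647 for Mt2 and chr8:94178839-94179118 for Mt1. Capitals mark matches, on either strand, to the metal response element core (TGCGCNC or TGCACNC) and to the antioxidant response element core (TGACNNNGC), where N is any base.
Mt2: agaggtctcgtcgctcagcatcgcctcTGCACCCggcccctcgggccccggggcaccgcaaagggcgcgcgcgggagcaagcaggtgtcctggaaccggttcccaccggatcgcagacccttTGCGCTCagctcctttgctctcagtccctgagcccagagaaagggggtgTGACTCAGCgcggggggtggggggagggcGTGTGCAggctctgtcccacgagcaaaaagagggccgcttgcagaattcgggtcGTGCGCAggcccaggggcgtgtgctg
Mt1: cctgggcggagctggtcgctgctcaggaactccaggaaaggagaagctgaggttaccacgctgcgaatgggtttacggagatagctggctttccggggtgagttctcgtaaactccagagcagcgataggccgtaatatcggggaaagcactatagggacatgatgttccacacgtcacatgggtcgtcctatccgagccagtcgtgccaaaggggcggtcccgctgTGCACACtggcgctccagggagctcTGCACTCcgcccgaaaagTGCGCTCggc
The Mt2 window held 4 metal response element cores and 1 antioxidant response element core, and the Mt1 window held 3 and 0, with no overlap of marked stretches. Over windows of 300 bases (250 before and 50 after the start), 25.7% of the 32851 in the table held at least 1 metal response element core, 1.97% at least 3 and 0.517% at least 4, and 12.4% held at least 1 antioxidant response element core. Windows of the same length were given for 7 of the 9 listed genes, and not for Hmox1 and Gclc. Gclm held 3 metal cores and 1 antioxidant core, which overlaps 1 of them, Prdx1 held 1 antioxidant core, and 1 of the 3 Txnrd1 windows held 1 antioxidant core. The Nqo1 and Sod2 windows held neither. A match is a description of the letters and does not show that a factor binds.

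Intensities were on a linear scale without units, with array medians between 157 and 214. The level of 1 probe set cannot be set against that of another. The lowest correlation between arrays of a group was 0.922, and the ratio of the 3' to the 5' Gapdh probe sets lay between 0.756 and 0.953 on all arrays. Cardiomyocyte markers were present on all arrays, at summed levels of 166486 to 237234 in sham upper tissue, so the pieces carried heart muscle as labelled. An infarct array at 1 week stood apart, with a cardiomyocyte sum of 19395 against 64586 and 67472 on the other infarct arrays of that time. A remote array at 4 h stood apart in another way, with 2658 of the fat cell gene Adipoq (singled out after its values were seen) against 82 and 87.1, and 2792 of the neutrophil gene S100a8 against 957 and 1235. An infarct array at 8 weeks held the most Adipoq of all arrays, 3442 against 74.9 and 835.5 on the others of its group. The 2 pieces of the mouse whose infarct array was low at 1 week held 1571 in infarct and 1178 in remote tissue. Some called changes of members, against sham or between the regions, are also given without single arrays. Infarct changes at 1 week are given without the array low in cardiomyocyte markers, and at 8 weeks without the array with the most Adipoq. Remote changes at 4 h are given without the remote array that stood apart. Changes of genes outside the member list are given with all arrays only.

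In infarct tissue some members rose and others fell. Mt1 did both, higher at 24 h and 48 h and lower at 1 week. A member is called here when the adjusted p of limma, over all 8140 probe sets tested, is below 0.05, and changes are on the scale of log2(intensity + 45.6). All 9 member probe sets were high enough to be tested. At 24 h, 6 of 9 rose and 2, both of Nqo1, fell, where 18.3% of all tested probe sets rose and 22.4% fell. At 48 h, 6 rose and 3 fell, against 24.6% and 24.8% of all. At 1 week 4 rose and 4 fell, against 34.1% and 24.3%. The median change of the 9 was 0.93 at 24 h, 1.24 at 48 h and 0.42 at 1 week, beside -0.01, -0.05 and 0.11 over all probe sets.

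In infarct tissue 1 member was called at each of the other times. At 1 h only Mt2 was called in infarct tissue, as were 6.34% of all probe sets in either direction, and at 4 h only Hmox1, beside 11.3%. At 8 weeks 1 member, Mt1, was called, lower, beside 19.9% of all. Remote tissue had 1 member called at 1 h (7.33% of all), 1 at 4 h (1.61%), 3 at 24 h (3.99%), 5 at 48 h (8.21%) and 3 at 1 week (35.7%). At 8 weeks limma called 0 of 9 in remote tissue, and 0 of 9 had an unadjusted p below 0.05, where 0.086% of all probe sets were called. Infarct and remote tissue were compared with the same sham arrays, so their changes are not independent of each other.

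**Figure D1:**
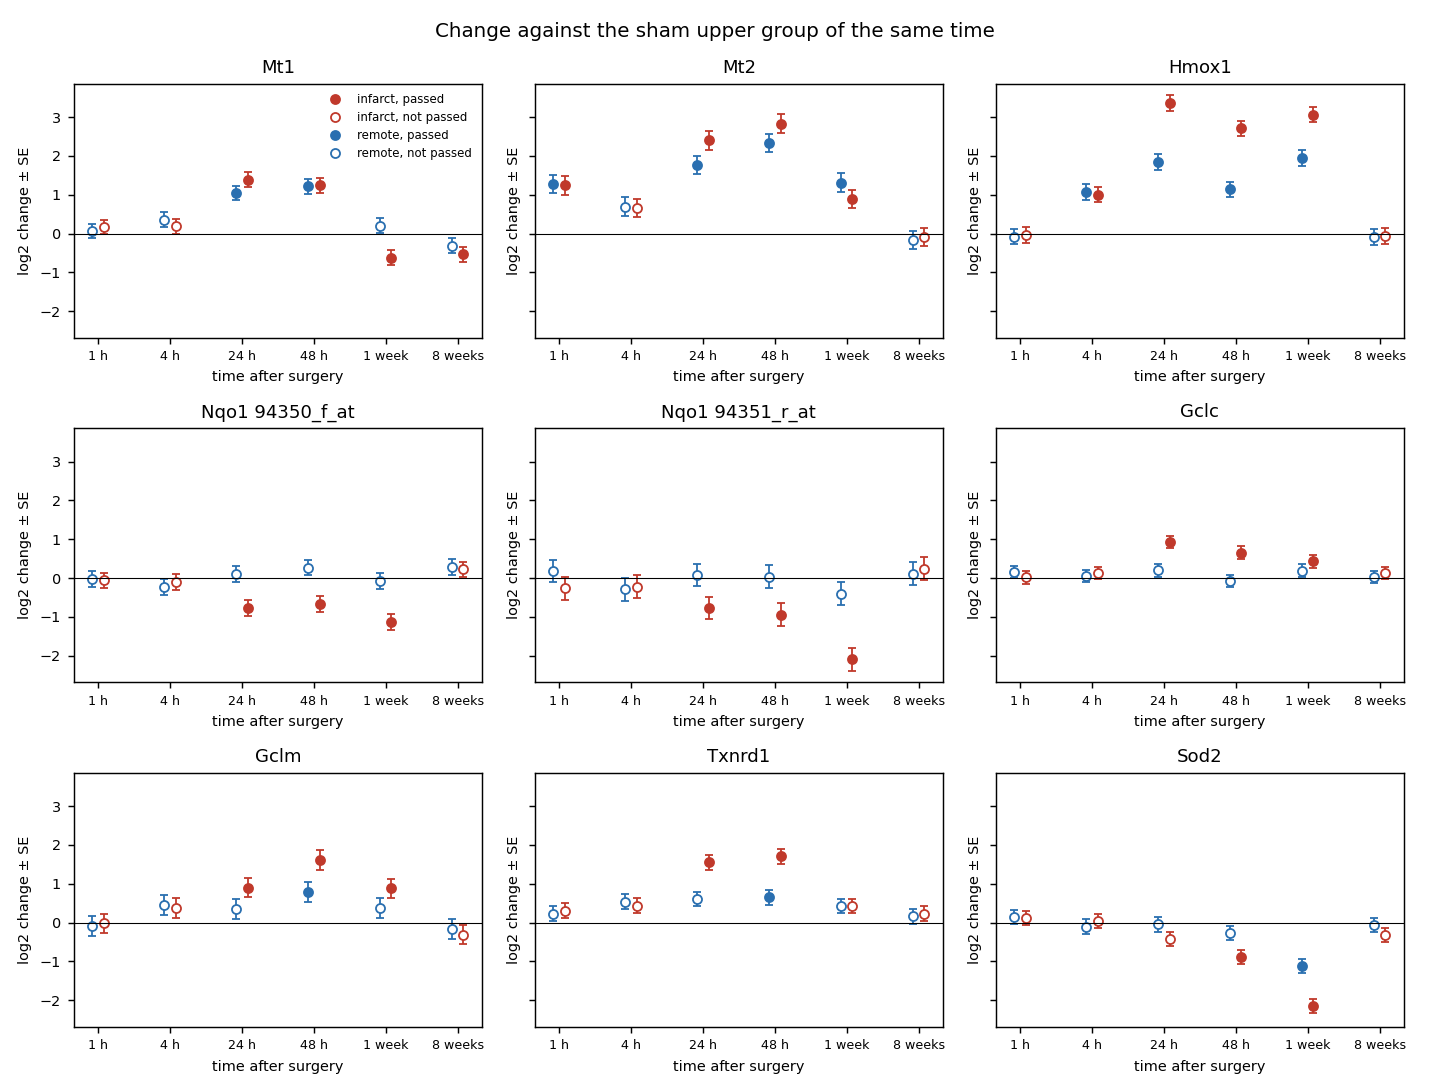
Log2 change (vertical axis, on the log2(intensity + 45.6) scale, ± SE of the fit) of each member probe set in infarct (red) and remote (blue) tissue against the sham upper group of the same time (horizontal axis), 3 arrays a group. Filled circles passed at adjusted p below 0.05. Hmox1 reached 3.36 in infarct tissue at 24 h, and Sod2 fell by 2.16 at 1 week.

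Tested over the 6 times together, infarct differed from sham for 9 of 9 member probe sets, beside 75.8% of all. The infarct effect also differed between times for 9 of 9, beside 62.6%. In remote tissue 6 of 9 differed from sham at some time, beside 39.4%, and the remote effect differed between times for 4 of 9 (Mt1, Mt2, Hmox1 and Sod2), beside 25.4%. Neither Nqo1 probe set nor Gclc was among the 6, with adjusted p of 0.578, 0.782 and 0.707. In infarct tissue the shares of members are thus to be read against a background in which most probe sets changed.

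Mt2, one of the widely expressed metallothionein genes, was already higher in both regions of the infarcted heart 1 h after surgery. Infarct tissue held 4501, 4872 and 5423 at 1 h, remote tissue 4791, 4954 and 5440, and sham upper tissue 1608, 2054 and 2615. All 6 arrays of the infarcted hearts lay above all 3 sham arrays. The change was 1.24 ± 0.24 (SE, adjusted p = 0.000754) in infarct and 1.28 ± 0.24 (adjusted p = 0.00054) in remote tissue, about 2.37-fold and 2.43-fold. By 24 h infarct tissue held 19264, 21245 and 24868 against 3882, 3885 and 4426 in sham, a change of 2.40 ± 0.24 (adjusted p = 7.73e-11). Remote tissue, at 10794, 13164 and 19252, changed by 1.77 (adjusted p = 1.87e-06). At 48 h infarct tissue held 16070, 16533 and 18429 against 1802, 2587 and 2747 in sham. This was the largest Mt2 change against sham of the same time, 2.84 or 7.14-fold (adjusted p = 1.12e-12). Remote tissue rose by 2.33 at 48 h (adjusted p = 3.97e-09). The infarct level itself was highest at 24 h. Against the mean of the 6 sham upper times, the infarct change was also larger at 24 h (2.48) than at 48 h (2.13). At 1 week infarct tissue held 5851, 6299 and 6354 and remote tissue 7153, 7762 and 10326. The arrays of the regions did not overlap, but the difference between the regions was not called in the main fit. Infarct and remote tissue were both still higher than sham, by 0.88 (adjusted p = 0.00138) and 1.31 (adjusted p = 2.75e-05). At 8 weeks Mt2 changed by -0.09 ± 0.24 in infarct (adjusted p = 0.823) and -0.17 ± 0.24 in remote tissue (adjusted p = 0.886), and the 3 regions overlapped.

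Mt1, the partner gene, rose later and less when set against sham of the same time. Against the mean of the 6 sham upper times, neither gene was called at 1 h and both were called at 4 h, in both regions. Against sham of the same time, the Mt1 changes at 1 h were 0.17 ± 0.19 in infarct (adjusted p = 0.678) and 0.07 ± 0.19 in remote tissue (adjusted p = 0.868), with overlapping arrays. At 24 h infarct tissue held 16526, 17702 and 19194, remote tissue 11787, 12859 and 17942, and sham upper tissue 5757, 6716 and 7867. All arrays of the infarcted hearts were above all sham arrays, and the changes were 1.39 ± 0.19 (adjusted p = 1.38e-07) and 1.05 ± 0.19 (adjusted p = 0.00035). In the fit of only the groups compared, the remote change at 24 h no longer passed (adjusted p = 0.0742). At 48 h the regions were nearly alike, with 12275, 12885 and 14244 in infarct and 12367, 12369 and 13963 in remote tissue against 5306, 5529 and 5704 in sham, changes of 1.24 and 1.22. At 1 week Mt1 fell below sham in infarct tissue, by 0.62 (adjusted p = 0.00459), with 4195, 4418 and 5720 against 6672, 6880 and 8496. Quantile normalization, which moved the median change of all probe sets there by -0.20, gave -0.24 (adjusted p = 0.263). The call at 8 weeks, -0.53 with overlapping arrays (adjusted p = 0.0406), was lost under the same normalization (adjusted p = 0.0855), in the fit of only the groups compared (adjusted p = 0.291) and when any 1 of 4 of the 6 arrays was left out, at adjusted p of 0.142 to 0.25. Without the array with the most Adipoq it was -0.41 (adjusted p = 0.206). The infarct changes at 1 week without the array low in cardiomyocyte markers were -0.54 for Mt1 (adjusted p = 0.0286) and 0.91 for Mt2 (adjusted p = 0.00368).

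**Figure D2:**
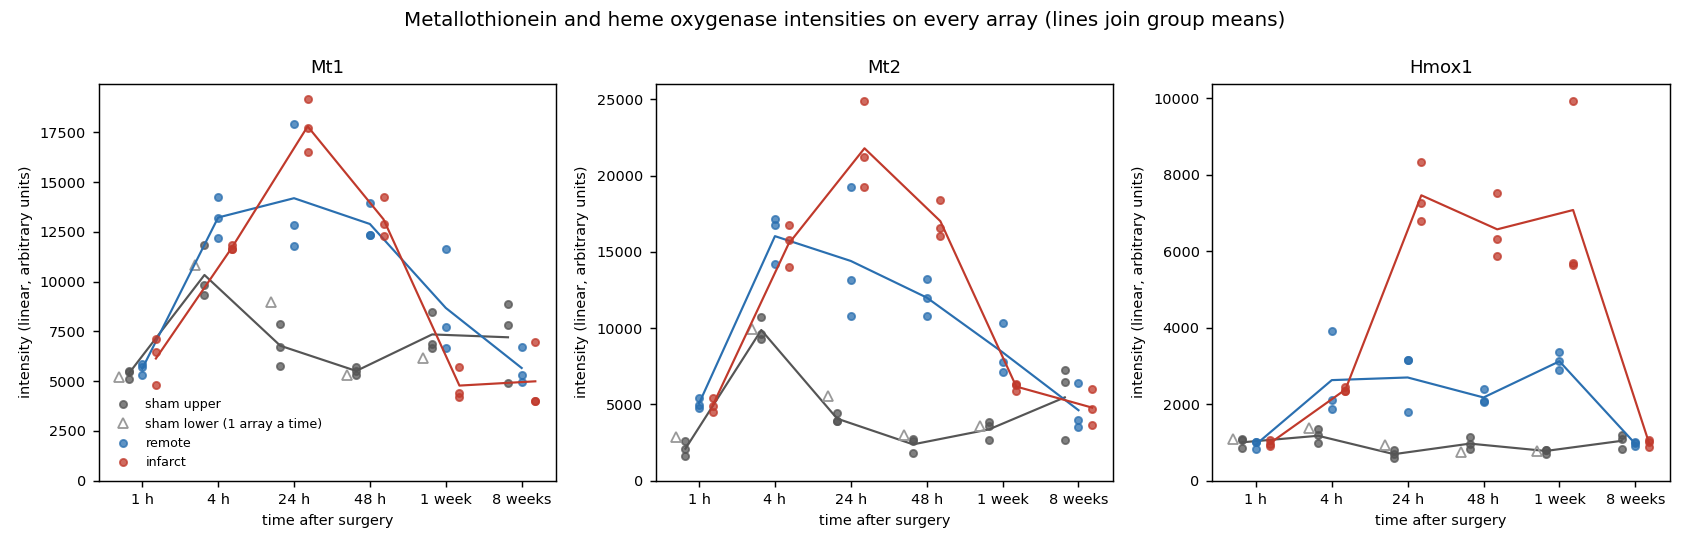
Intensity (vertical axis, linear, arbitrary units) of Mt1, Mt2 and Hmox1 on every array by time after surgery (horizontal axis). Circles are arrays of infarct (red), remote (blue) and sham upper tissue (grey), 3 a group, lines join group means, and open triangles are the single sham lower arrays. Both metallothioneins rose in sham tissue at 4 h, where Mt2 lay between 9288.5 and 10718, while Hmox1 stayed between 582.5 and 1339 on all sham upper arrays.

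The sham level of the metallothioneins was not steady. In sham upper tissue Mt2 went from 1608, 2054 and 2615 at 1 h to 9288.5, 9620.4 and 10718 at 4 h, a rise of 2.24 ± 0.24 or 4.72-fold (adjusted p = 6.31e-08). The single sham lower array gave 2838 at 1 h and 9948 at 4 h, so the lower ventricle of 1 sham mouse at each time held a like level. Mt2 then fell by 1.27 from 4 h to 24 h (adjusted p = 0.00125). Mt1 in sham went from 5108, 5478 and 5524 to 9339, 9854 and 11819 over the same step, a rise of 0.93 (adjusted p = 0.00323), and its return at 24 h, -0.61, missed the threshold (adjusted p = 0.0637). These steps between neighbouring times were compared after the data were seen.

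Mt2 also rose in the infarcted hearts at 4 h, by 1.65 in infarct and 1.65 in remote tissue from 1 h to 4 h, to 14019 to 16778 and 14221 to 17131. All 6 arrays at 4 h were above the 3 sham arrays of that time, but the change against them, 0.65 ± 0.24 in infarct (adjusted p = 0.0693) and 0.69 ± 0.24 in remote tissue (adjusted p = 0.155), did not pass, and passed in the fit of only the groups compared (adjusted p = 0.0113 and 0.0418). Mt1 at 4 h changed by 0.19 (adjusted p = 0.616) and 0.36 (adjusted p = 0.457).

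How much of the metallothionein response is seen at 1 h and 4 h thus depends on the control. Against the mean of the 6 sham upper times, Mt2 at 4 h was higher by 1.998 in infarct (adjusted p = 1.77e-11) and 2.04 in remote tissue (adjusted p = 2.48e-11), and Mt1 by 0.77 (adjusted p = 0.000106) and 0.94 (adjusted p = 9.99e-06). Against the same mean, Mt2 at 1 h was higher by only 0.35 (adjusted p = 0.276) and 0.39 (adjusted p = 0.476). The Mt2 calls at 24 h, 48 h and 1 week held under either control, at 2.48, 2.13 and 0.68 for Mt2 in infarct tissue against the mean.

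**Figure D3:**
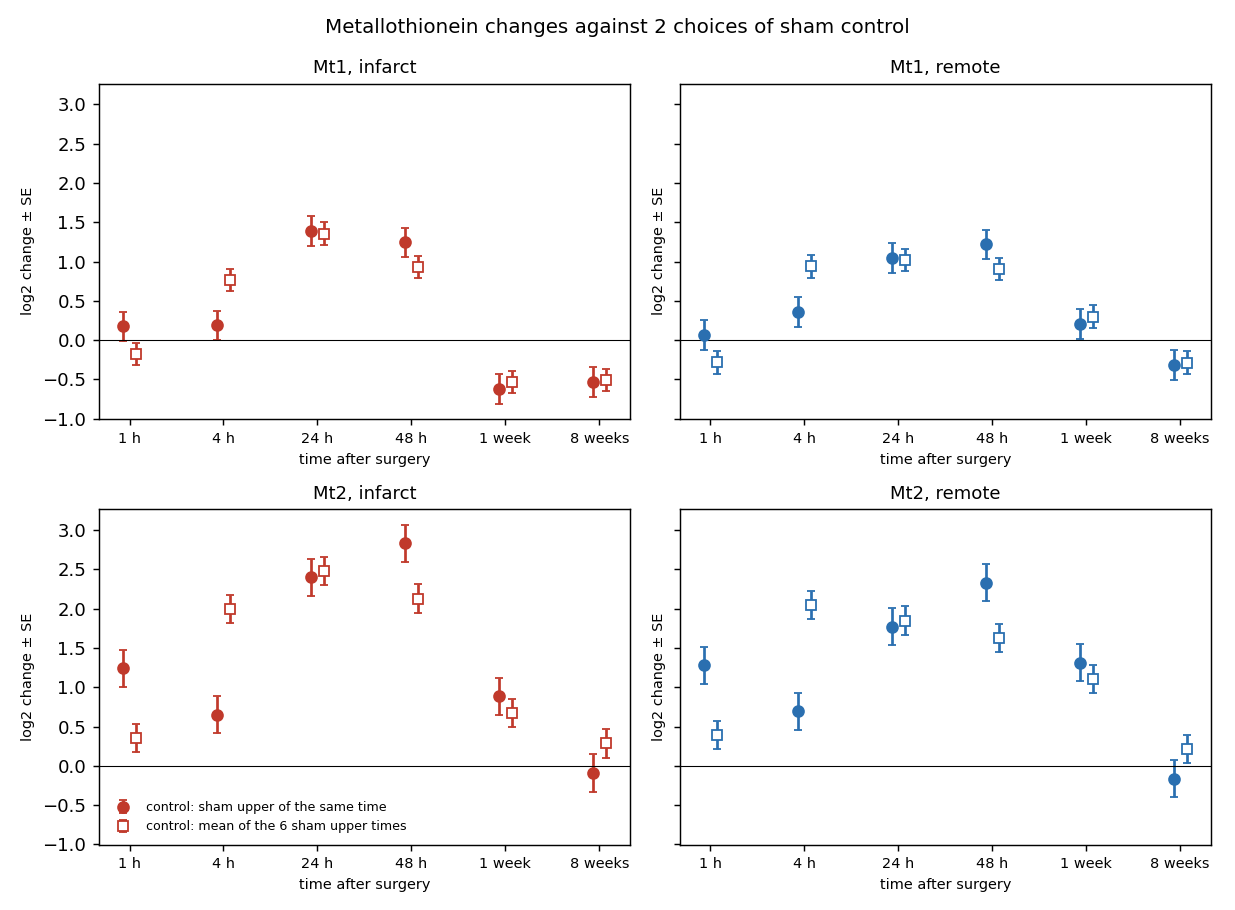
Log2 change ± SE (vertical axis) of Mt1 and Mt2 in infarct (left) and remote tissue (right) at each time after surgery (horizontal axis), against the sham upper group of the same time (filled circles) or the mean of the 6 sham upper times (open squares). For Mt2 at 4 h the values were 0.65 and 1.998 in infarct tissue, and at 1 h they were 1.24 and 0.35.

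Over the 6 sham times, 3 of 9 member probe sets differed in an F test, beside 19.6% of all probe sets, with adjusted p of 9.63e-08 for Mt2, 0.00413 for Mt1 and 0.0497 for Hmox1. Gclm, which missed it (adjusted p = 0.122), was called between 4 h and 24 h (0.84, adjusted p = 0.0486), where 1 sham array held 860.0 against 329.9 and 427. Without that array the difference was 0.48 (adjusted p = 0.46). Hmox1 in sham fell from 979, 1202 and 1339 at 4 h to 582.5, 704 and 791 at 24 h, by 0.72 (adjusted p = 0.0372), a call lost when any 1 of the 6 arrays was left out.

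Each earlier sham time was also set against sham at 8 weeks, where Mt2 itself was spread over 2664, 6492 and 7227. The sham mice of times up to 48 h, of 1 week and of 8 weeks carry numbers in separate ranges. Between these ranges, time cannot be told apart from anything else that set the mice apart. The mean of the 6 sham upper times joins the same ranges. Mt2 was called at 1 h (-1.27, adjusted p = 0.000663), at 4 h (0.97, adjusted p = 0.0371) and at 48 h (-1.08, adjusted p = 0.038), and no other member was called at any time. Of all probe sets 5.86% were called at 1 h, 0.676% at 4 h, 3.32% at 24 h, 0.16% at 48 h and 10.5% at 1 week. At 24 h and at 1 week limma called 0 of 9 members, where 1 of 9 at each time had an unadjusted p below 0.05. The Mt2 calls at 4 h and 48 h were lost when single arrays were left out (at 4 h any of its 3 or the lowest at 8 weeks, and at 48 h any of its 3 or either of the others at 8 weeks). Without the lowest array at 8 weeks, Mt2 at 1 week was called lower, by 1.04 (adjusted p = 0.005).

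Hmox1, the inducible heme-degrading enzyme, showed the largest rise of the members. At 1 h it did not differ from sham, with -0.04 ± 0.20 in infarct (adjusted p = 0.944) and -0.08 ± 0.20 in remote tissue (adjusted p = 0.851). At 4 h infarct tissue held 2343, 2347 and 2456 against 979, 1202 and 1339 in sham, a rise of 1.00 ± 0.20 or 2.01-fold (adjusted p = 0.000583). Remote tissue held 1868, 2112 and 3905, a rise of 1.07 (adjusted p = 0.000855). The highest of these came from the array with the high Adipoq and S100a8, and without it the change was 0.75 (adjusted p = 0.0545). The remote call was also lost in the fit of only the groups compared (adjusted p = 0.13).

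From 24 h on, infarct tissue separated from remote tissue. At 24 h infarct tissue held 6781, 7261 and 8342 of Hmox1, remote tissue 1791, 3151 and 3151, and sham upper tissue 582.5, 704 and 791, so that the 3 regions did not overlap. The rise was 3.36 ± 0.20 or 10.3-fold in infarct (adjusted p = 1.41e-16) and 1.85 ± 0.20 or 3.61-fold in remote tissue (adjusted p = 7.66e-08). At 48 h the values were 5875, 6309 and 7529.6 in infarct, 2044, 2073 and 2407 in remote and 820.4, 949.9 and 1134 in sham upper tissue, again without overlap, with rises of 2.71 and 1.14. Hmox1 remained high at 1 week, at 5629.9, 5684 and 9914 in infarct, 2883, 3117 and 3361 in remote and 709.6, 808 and 811 in sham tissue, rises of 3.07 (adjusted p = 5.56e-16) and 1.95 (adjusted p = 1.12e-09). Without the array low in cardiomyocyte markers the infarct rise at 1 week was 3.19. From 1 week to 8 weeks it fell by 2.73 in infarct (adjusted p = 5.17e-13) and fell by 1.65 in remote tissue (adjusted p = 1.43e-07), to 889.5 to 1074 and 903 to 998, which overlapped sham at 832 to 1198.

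Markers of macrophages and neutrophils were counted in the same comparisons. Of all probe sets, 18.3% rose in infarct tissue at 24 h, 24.6% at 48 h and 34.1% at 1 week. The shares called there in either direction were 11.3% at 4 h and 19.9% at 8 weeks. In remote tissue the shares called in either direction were 1.61% at 4 h, 3.99% at 24 h, 8.21% at 48 h and 35.7% at 1 week. Of 10 macrophage markers 7 rose in infarct tissue at 24 h, 9 at 48 h and 10 at 1 week. In remote tissue 10 rose at 1 week, and their median change was 0.40 at 24 h and 0.19 at 48 h. At 8 weeks 7 of the 10 were still higher in infarct tissue (median 0.99, summed level 6183 to 13925), where Hmox1 overlapped sham. Their summed level was 8895 to 19342 in infarct tissue at 24 h, 18978 to 32689 at 48 h and 39404 to 43191 at 1 week, and 20175 to 30395 in remote tissue at 1 week, beside 3812 to 7782 on all sham upper arrays. Of 9 neutrophil markers tested 4 rose in infarct tissue at 4 h, 8 at 24 h, 8 at 48 h and 5 at 1 week, and in remote tissue 4 rose at 4 h, 3 at 24 h, 4 at 48 h and 3 at 1 week. Their summed level was 10685 to 22200 at 24 h and 18672 to 19584 at 48 h in infarct tissue. In remote tissue it was 5059 to 8104 at 24 h and 5326 to 6633 at 48 h, beside 662.6 to 1589 in sham upper tissue. Of these markers, S100a8 held 243.8 to 2402 in remote tissue at 24 h and 462.1 to 774.3 at 48 h. In infarct tissue it held 2230.5 to 7460 and 6056 to 6868, and in sham upper tissue 109.7 to 125.3 and 141.5 to 201. Most of the remote sum at 48 h thus came from other markers of the list. No marker of either list was listed at 0 throughout a group. In whole tissue, more RNA per cell and more cells of a type that carries it cannot be told apart, and the part of these cells in the results was not tested.

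**Figure D4:**
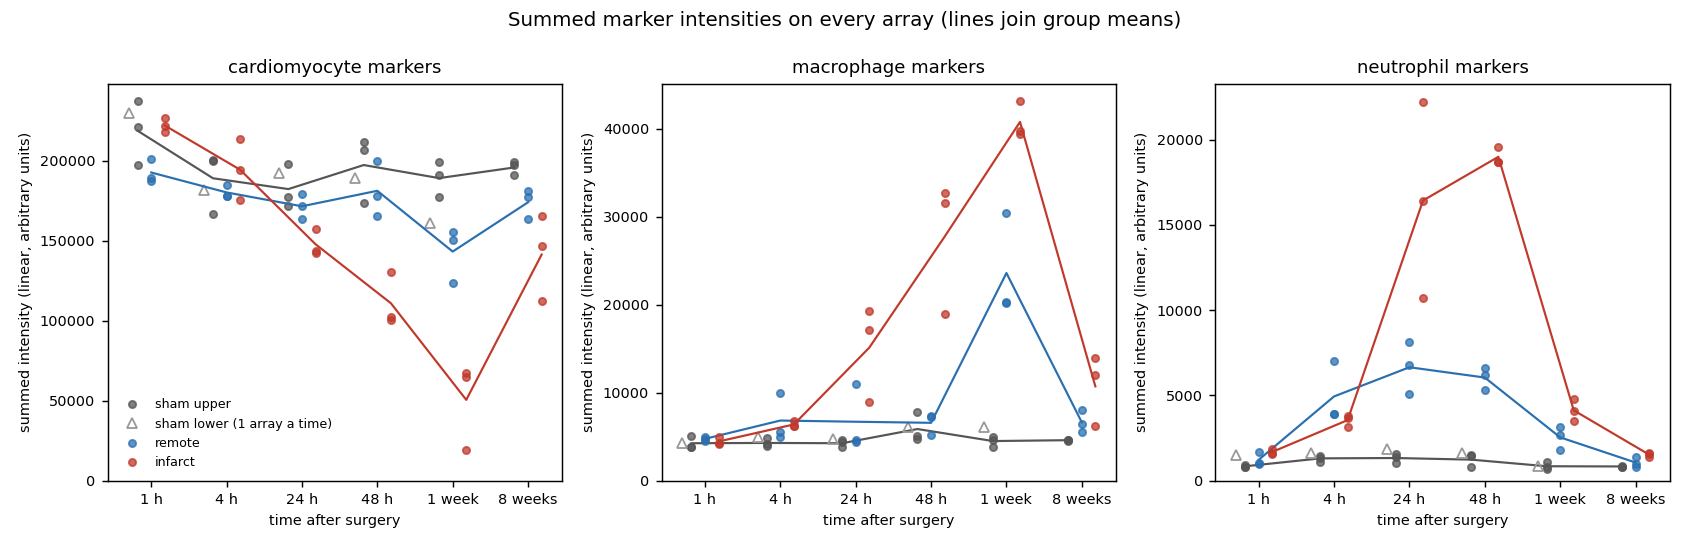
Summed intensity (vertical axis, linear, arbitrary units) of 9 cardiomyocyte, 10 macrophage and 9 neutrophil marker genes on every array by time after surgery (horizontal axis). Circles are arrays of infarct (red), remote (blue) and sham upper tissue (grey), lines join group means, and open triangles are the single sham lower arrays. The cardiomyocyte sum of infarct tissue was lowest at 1 week, at 19395 to 67472.

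Gclc and Gclm encode the catalytic and the modifier subunit of glutamate-cysteine ligase, the limiting enzyme of glutathione synthesis, and both rose in infarct tissue from 24 h to 1 week. Gclc at 24 h was 739, 794 and 871 in infarct, 467.8 ± 62.9 (SD, n = 3) in remote and 351.3, 400.6 and 448 in sham upper tissue. Infarct arrays lay above all others, and the rise was 0.93 ± 0.16 or 1.91-fold (adjusted p = 9.14e-06). It was 0.66 at 48 h (adjusted p = 0.000764) and 0.43 at 1 week (adjusted p = 0.0214). The call at 1 week was lost by quantile normalization (0.20, adjusted p = 0.311) and without any 1 of 3 of the 6 arrays (adjusted p of 0.0522 to 0.0752). In remote tissue Gclc was not called at any time, with changes from -0.08 to 0.20.

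Gclm had its highest infarct mean at 48 h, although the infarct arrays at 24 h, at 664 to 1241, overlapped those at 48 h. At 48 h the values were 752, 1358 and 1463 in infarct, 374, 778 and 838 in remote and 273, 376 and 399 in sham upper tissue. These infarct arrays lay above sham and overlapped remote tissue, and the rise was 1.61 ± 0.25 or 3.05-fold (adjusted p = 9.91e-07). At 24 h it was 0.90 (adjusted p = 0.00356), with 1 sham array, at 860.0, above the lowest infarct array, at 664. That call was lost in the fit of only the groups compared (adjusted p = 0.0776) and without the lowest sham array (0.63, adjusted p = 0.0599). At 1 week it was 0.88 (adjusted p = 0.00258). Without the array low in cardiomyocyte markers the changes at 1 week were 0.99 for Gclm (adjusted p = 0.00299) and 0.52 for Gclc (adjusted p = 0.013). In remote tissue Gclm was called at 48 h, at 0.78 (adjusted p = 0.044), where the lowest remote array, at 374, lay inside the sham range. This call was lost without any 1 of 5 of the 6 arrays, at adjusted p of 0.0637 to 0.216, without a filter on low values (adjusted p = 0.0559) and in the fit of only the groups compared (adjusted p = 0.235).

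Txnrd1, the cytosolic thioredoxin reductase that keeps thioredoxin reduced, rose at 24 h and 48 h. At 24 h infarct tissue held 1925, 3298 and 3730, remote tissue 1274, 1468 and 1774 and sham upper tissue 682, 1070 and 1143. The regions did not overlap, and the infarct rise was 1.55 ± 0.19 or 2.94-fold (adjusted p = 1.03e-08). The lowest infarct array was also the lowest for Gclm and for Gclc. At 48 h the values were 1954, 3058 and 3245 against 755, 797 and 823 in sham, a rise of 1.71 (adjusted p = 7.32e-10). The level then fell by 1.02 to 1 week (adjusted p = 3.95e-05), where the change against sham was 0.42 (adjusted p = 0.0506). That change passed without the array low in cardiomyocyte markers (0.55, adjusted p = 0.0246).

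Remote tissue carried smaller Txnrd1 changes than infarct tissue at 24 h and 48 h, but not at 4 h. The mean level at 4 h was 1208.5 in remote and 1119.3 in infarct tissue. Against sham of the same time, remote changes were 0.54 at 4 h (adjusted p = 0.171), 0.61 at 24 h (adjusted p = 0.0528) and 0.65 at 48 h (adjusted p = 0.0243). Remote arrays lay above all sham arrays at each of these times. The call at 48 h was lost in the fit of only the groups compared (adjusted p = 0.0917) and without any 1 of 5 of the 6 arrays, at adjusted p of 0.0506 to 0.0914. Against the mean of the sham times, Txnrd1 was higher in remote tissue at 4 h, 24 h, 48 h and 1 week, by 0.53, 0.80, 0.59 and 0.64. In infarct tissue the values at these times against that mean were 0.42, 1.74, 1.655 and 0.64.

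Nqo1, the quinone reductase often used as a readout of NRF2, went the other way. Its probe set 94350_f_at held 250.5, 303 and 377 in infarct tissue at 24 h, 510.4, 614 and 639.8 in remote tissue and 493, 577 and 580.3 in sham upper tissue. All infarct arrays were below all others, and the fall was 0.76 ± 0.20 on the log2 scale (adjusted p = 0.00222). It fell by 0.68 at 48 h (adjusted p = 0.0051) and by 1.13 at 1 week (adjusted p = 6.53e-06). At 48 h 1 infarct array, at 480.2, lay inside the sham range, and the others held 207 and 235. That call was lost in the fit of only the groups compared (adjusted p = 0.06) and without the lowest array (-0.48, adjusted p = 0.0727).

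The second Nqo1 probe set, 94351_r_at, gave the same directions. It fell by 0.77 ± 0.29 at 24 h (adjusted p = 0.0317), by 0.95 at 48 h (adjusted p = 0.0068) and by 2.09 at 1 week (adjusted p = 6.72e-08). At 1 week infarct tissue held 56.7, 185 and 345, remote tissue 451, 560.3 and 973 and sham upper tissue 672.5, 803.5 and 1121. The lowest value came from the array low in cardiomyocyte markers, and without it the changes at 1 week were -1.60 (adjusted p = 6.62e-06), and for 94350_f_at -0.93 (adjusted p = 0.000362). The call of 94351_r_at at 24 h, where the highest infarct array, at 891, lay inside the sham range, was lost without any 1 of 4 of the 6 arrays, at adjusted p of 0.0793 to 0.163, with an offset of 0.05 times the median (adjusted p = 0.0501) and in the fit of only the groups compared (adjusted p = 0.0508). At 48 h it was lost without the lowest infarct array (-0.72, adjusted p = 0.0663). In remote tissue neither probe set was called at any time, with changes from -0.40 to 0.28. From 1 week to 8 weeks the infarct levels rose again, by 1.51 and 2.28, to 476 to 659 and 807 to 1141, and overlapped sham.

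Sod2 fell later and in both regions. At 24 h infarct tissue held 2338, 2555 and 2859, below sham at 3279, 3314 and 3772, with a change of -0.42 ± 0.18 that did not pass (adjusted p = 0.0638). At 48 h it held 1326, 1650 and 1915 against 2782, 3087 and 3257, a fall of 0.89 (adjusted p = 7.91e-05). At 1 week the values were 411, 838 and 925 in infarct, 1228, 1576 and 1619 in remote and 3067, 3206 and 3388 in sham upper tissue. The 3 regions did not overlap, and Sod2 fell by 2.16 ± 0.18 in infarct (adjusted p = 3.09e-13) and by 1.11 ± 0.18 in remote tissue (adjusted p = 7.23e-06). Without the lowest array the infarct change was -1.83 (adjusted p = 9.42e-12). Sod2 was the only member that fell in remote tissue. At 8 weeks infarct tissue held 1466, 2344 and 3381, a change of -0.32 (adjusted p = 0.221) that became -0.60 (adjusted p = 0.0135) without the highest array, and -0.03 without the lowest, which was the array with the most Adipoq.

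**Figure D5:**
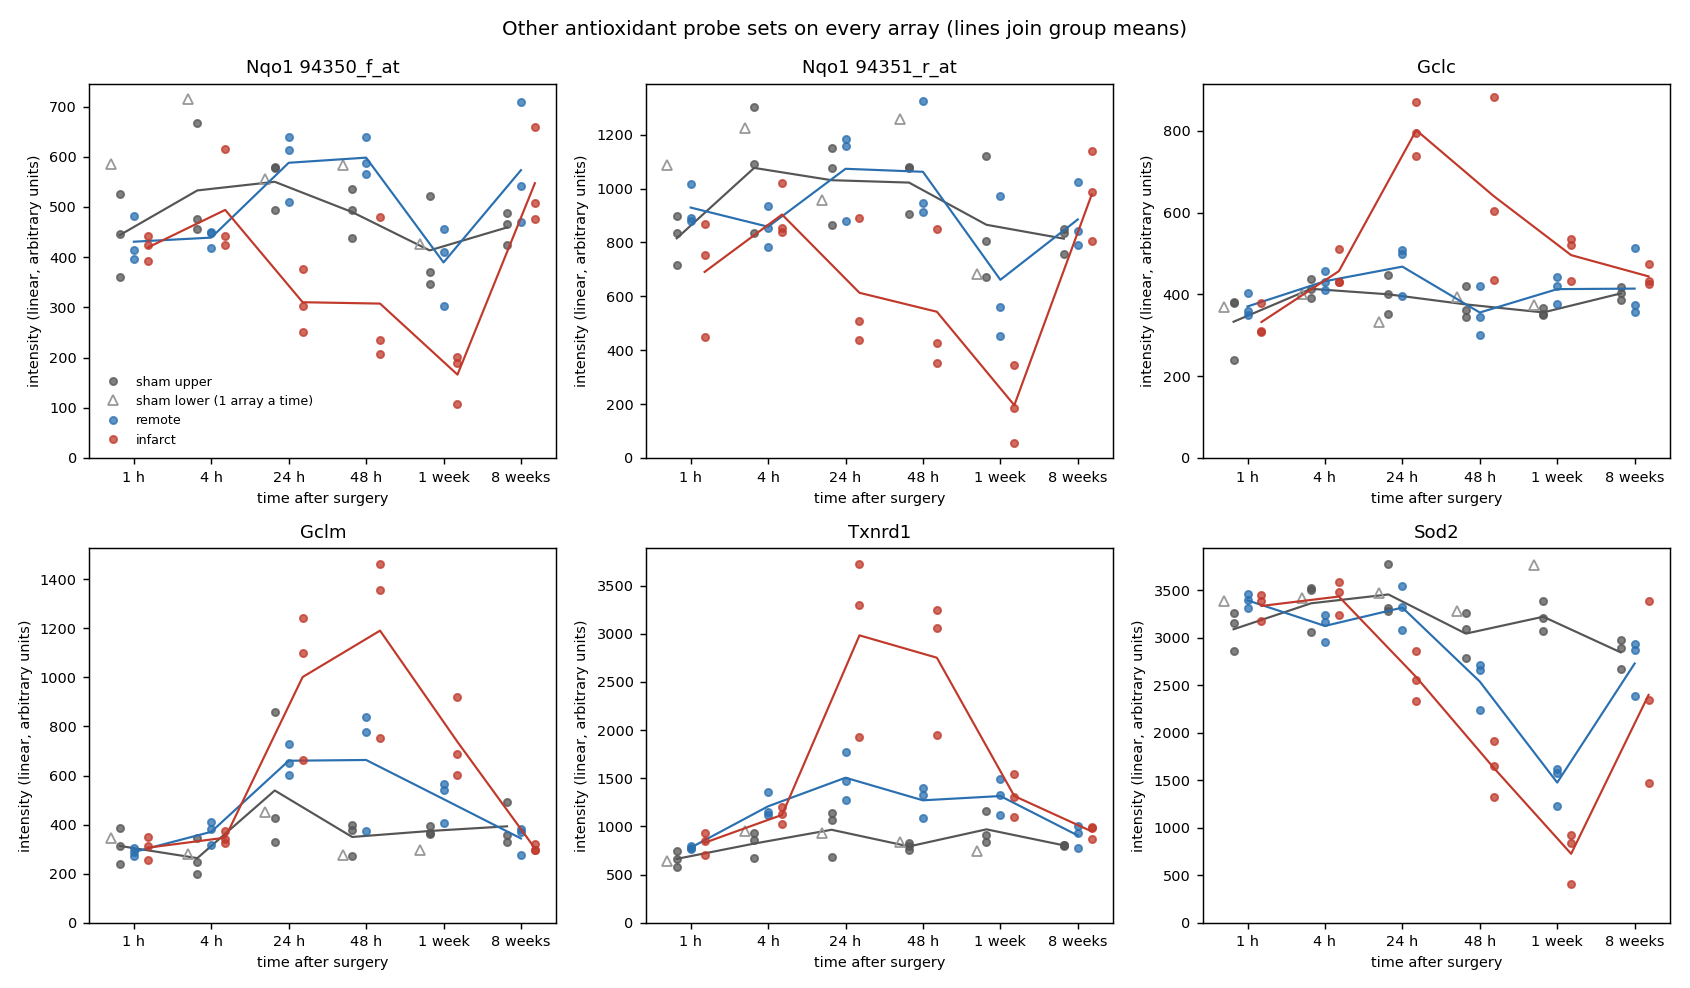
Intensity (vertical axis, linear, arbitrary units) of the 2 Nqo1 probe sets, Gclc, Gclm, Txnrd1 and Sod2 on every array by time after surgery (horizontal axis). Circles are arrays of infarct (red), remote (blue) and sham upper tissue (grey), lines join group means, and open triangles are the single sham lower arrays. Sod2 in infarct tissue was lowest at 1 week, at 411 to 925, where remote tissue held 1228 to 1619.

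Markers of cardiomyocytes and other cells were counted as well. Of all probe sets, 24.8% fell in infarct tissue at 48 h, and at 1 week 24.3% fell and 34.1% rose. In remote tissue 35.7% were called at 1 week in either direction. Of 9 cardiomyocyte markers tested, 0 were called in infarct tissue at 24 h, 7 fell at 48 h and 9 at 1 week. In remote tissue 1 of them fell at 1 week, and their median change was -0.45. Their summed level in infarct tissue was 142545 to 157502 at 24 h, 100214 to 130352 at 48 h and 19395 to 67472 at 1 week, against 123713 to 155160 in remote tissue at 1 week and 166486 to 237234 in sham upper tissue. The infarct array lowest in that sum was the lowest for Sod2 and for both Nqo1 probe sets. At 24 h, where Nqo1 94350_f_at fell by 0.76, the median change of the cardiomyocyte markers was -0.28. Of 8 fibroblast markers 6 rose in infarct and 6 in remote tissue at 1 week. Of 7 endothelial markers 5 fell in infarct tissue then, and of 3 erythroid markers 2 fell. The part of these cells in the falls was not tested.

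The infarct and remote pieces of the same hearts were also set against each other. At 1 h and 4 h limma called 0 of 9 members, and 0 of 9 had an unadjusted p below 0.05 at either time, where 4.57% and 1.27% of all probe sets were called. At 24 h, 4 members were higher in infarct (Hmox1 by 1.51, Txnrd1 by 0.94, Gclc by 0.74 and Mt2 by 0.63) and both Nqo1 probe sets were lower, by -0.86 and -0.85, beside 31.4% of all probe sets called. At 48 h, 4 were higher (Hmox1 by 1.57, Txnrd1 by 1.06, Gclm by 0.82 and Gclc by 0.73) and 3 lower (Sod2 and both Nqo1), beside 46.1%. At 1 week Hmox1 was higher, by 1.12, and 4 were lower, namely Mt1 by -0.83, Sod2 by -1.05 and Nqo1 by -1.06 and -1.69, beside 39.1%. Without the array low in cardiomyocyte markers these values were 1.24 for Hmox1, -0.75 for Mt1, -0.72 for Sod2 and -0.86 and -1.198 for Nqo1, and all 5 still passed. At 8 weeks limma called 0 of 9, with 0 of 9 at an unadjusted p below 0.05, beside 5.61% of all.

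Mt1 differed between the regions at 1 week, with 4195, 4418 and 5720 in infarct and 6678, 7747 and 11618 in remote tissue (adjusted p = 0.000194). Mt2 was higher in infarct tissue at 24 h (adjusted p = 0.0294), a call lost in the fit of only the groups compared (adjusted p = 0.0736) and without any 1 of 4 of the 6 arrays, at adjusted p of 0.0514 to 0.203. The call of Nqo1 94351_r_at at 24 h was lost in that fit (adjusted p = 0.0506) and without any 1 of 4 of the 6 arrays, at adjusted p of 0.0634 to 0.118. That of Gclm at 48 h was lost in that fit (adjusted p = 0.0645) and without the lowest remote array (0.52, adjusted p = 0.0855). Under quantile normalization Mt1 passed at 24 h (0.44, adjusted p = 0.0429) and Mt2 at 48 h (0.88, adjusted p = 0.00072). With the mouse number as a fixed block, which uses the hearts with both pieces, 4 more differences passed: Gclm at 24 h (0.78, adjusted p = 0.00218) and at 1 week (0.50, adjusted p = 0.00561), and Mt2 at 48 h (0.50, adjusted p = 0.00447) and at 1 week (-0.43, adjusted p = 0.0143). All 18 calls made without the fixed block passed with it.

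Sham lower and sham upper tissue differed in 0 of 9 members by limma, and 0 of 9 had an unadjusted p below 0.05, where 5.34% of all probe sets were called. The changes ran from -0.12 for Gclm to 0.26 for Mt2 (adjusted p = 0.306). Sham lower tissue had 1 array at each of 5 times, so its spread was taken from the other groups.

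Other genes of the same pathways were taken from fixed lists. Their counts were not tested as sets and are to be read beside the shares of all probe sets called in infarct tissue. These were 18.3% higher and 22.4% lower at 24 h, 24.6% and 24.8% at 48 h, and 34.1% and 24.3% at 1 week. Some counts, such as those of the heme and iron genes at 24 h, were near these shares. Among 7 tested regulators of NRF2 signalling, 3 rose and 1 fell in infarct tissue at 24 h, and 5 rose and 1 fell at 48 h. At 1 week 3 of the regulators rose and 2 fell. Mafk, a small MAF partner of NRF2, rose by 1.30 ± 0.15 at 24 h (adjusted p = 2.59e-09) and by 0.75 in remote tissue (adjusted p = 0.000983). Bach1, a repressor of Hmox1, rose by 1.40 at 48 h and 1.66 at 1 week. Nfe2l1, a relative of NRF2, fell by 1.10 at 1 week (adjusted p = 7.53e-12). Of 11 glutathione genes 3 rose and 4 fell at 24 h, and 4 rose and 4 fell at 48 h. At 1 week 3 of the 11 rose and 3 fell. Gsr, the glutathione reductase, rose by 1.14 at 24 h and 1.56 at 48 h. At the same 2 times Glrx, a glutaredoxin, rose by 1.91 and 1.55, and Gpx4, the lipid peroxide reductase, fell by 0.44 and 0.81.

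Of 8 thioredoxin and peroxiredoxin genes 1 rose and 3 fell at 24 h, and 2 rose and 4 fell at 48 h. At 1 week 2 of the 8 rose and 5 fell, and the list's median was -0.94 beside 0.11 over all probe sets. Txnrd2 and Txn2, the mitochondrial reductase and thioredoxin, changed at 1 week by -1.57 and -1.196, and Prdx4, the peroxiredoxin of the endoplasmic reticulum, rose by 2.27. Of 7 superoxide and catalase genes 4 rose and 1 fell at 24 h, 4 rose and 2 fell at 48 h and 5 rose and 2 fell at 1 week. Those named by the rule, Cyba, Ncf4 and Cybb, are subunits of the phagocyte NADPH oxidase, which makes superoxide, and rose by 1.95, 2.57 and 2.51 at 1 week.

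Of 5 genes that supply NADPH, 2 rose and 1 fell at 24 h, and 2 rose and 0 fell at 48 h. At 1 week 4 of the 5 rose and 1 fell. Pgd and Taldo1, of the pentose phosphate pathway, rose at 48 h by 1.03 and 0.85, and Idh1 fell by 1.01 at 24 h and rose by 0.72 at 1 week. Of 9 heme and iron genes 2 rose and 2 fell at 24 h, and 1 rose and 4 fell at 48 h. At 1 week 1 of the 9 rose and 3 fell. Alas1 and Alad, the first enzymes of heme synthesis, fell by 2.38 and 2.35 at 1 week, and Hp, the haemoglobin-binding haptoglobin, rose by 3.77 ± 0.54. Of 4 metal and zinc genes 2 rose at 24 h, 0 at 48 h and 3 at 1 week. Mtf1, the metal-sensing factor itself, was not called in infarct or remote tissue at any time, and Slc39a1, a zinc importer, rose by 1.57 at 1 week.

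The members' courses were compared over the 18 group means of infarct, remote and sham upper tissue, as a description without a test, since the means share arrays, scaling and tissue makeup. Gclm and Txnrd1 had a Pearson r of 0.905, Mt1 and Mt2 0.884, Gclc and Txnrd1 0.879 and Hmox1 and Txnrd1 0.873. The 2 Nqo1 probe sets had 0.953 with each other, and -0.671 and -0.657 with Hmox1. Sod2 had 0.877 with Nqo1 94351_r_at and -0.651 with Hmox1. Mt1, in contrast, had 0.163 with Sod2 and 0.065 with Nqo1 94350_f_at.

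The genes outside the list with the most similar courses differed between members. For Mt2 they were Cdkn1a, an inhibitor of the cell cycle (r = 0.944), Ifrd1 (0.900) and Nfil3 (0.864), and for Mt1 Aff1 (0.884), Xirp1 (0.859) and Lcn2, the neutrophil lipocalin (0.849). Hmox1 ran closest to the chemokine gene Ccl12 (0.965), Sptlc2 (0.962) and Tubb6 (0.961). Txnrd1 and Gclm ran closest to the nucleolar genes Gnl3 (0.966) and Gar1 (0.949), followed by Ddx21 (0.953) and Stam (0.950) for Txnrd1 and by Ncl (0.931) and Rnf19b (0.929) for Gclm. Gclc ran closest to Ndrg1 (0.951), Ell (0.945) and Snhg1 (0.927). Nqo1 ran closest to the muscle genes Myzap (0.940), Lmo7 (0.936) and Myom1 (0.936), and Sod2 to Ldhb (0.985), the mitochondrial peroxiredoxin gene Prdx3 (0.983) and Sdha (0.982).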

How the data were processed

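Each of the 59 arrays measured RNA of 1 piece of mouse left ventricle. The authors' deposited values are intensities on a linear scale, as the values themselves show, from 0 to 35489, and the mean of the values between percentiles 2 and 98 was 499.2 to 499.9 on every array. What tool scaled them, and to which target, is not given in the sources used. Of 12488 probe sets, 66 controls, 396 with several genes and 1193 with none were left out, and 10833 with 1 gene (8251 genes) were kept. GEO's platform annotation named them, and 10817 matched the RefSeq table.

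A probe set was tested if 3 or more arrays reached 108.2, which is percentile 40 of the values (8140, of 6672 genes), after log2 of the deposited intensity plus 45.6, which is 0.25 times the median. In R 4.3.3, limma 3.58.1 fitted 1 model of 23 groups (region by time) over 59 arrays, with the title number as a random block (consensus correlation 0.137) and 36 residual degrees of freedom. Groups came from the labels. Benjamini-Hochberg adjustment ran over the tested probe sets, 1 comparison at a time. The p-values measure the spread between these pieces, which the labels do not describe further. With 3 arrays a group, their number limits the precision. Same-numbered infarct and remote arrays (17 pairs) correlated in their deviations from group means by -0.106 to 0.412, with 7 above 0.1, and the block was kept because 1 number is taken as 1 heart.

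The members and gene lists were chosen with earlier results of these data known. Every member probe set is named, and, from each pathway list, up to 3 genes with the lowest adjusted p in the F test of infarct against sham over the times. The 3 genes most like each member come from Pearson r over 18 group means. Scripts were tested on simulated data. Alternatives were offsets of 0.05 and 1 times the median, quantile normalization, no filter, 1 probe set a gene, no block, a fixed block, a fit restricted to the groups compared, a control that joins sham upper with sham lower arrays, a control that averages the 6 sham times, and each array left out. Comparisons of neighbouring times were added after the data were seen. Figures used Python 3.11.15 and matplotlib 3.10.9.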

Additional observations from a re-analysis of the deposited data

Results flagged for a closer look

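The infarct effect differed between the 6 times for all 9 member probe sets by limma's F test of the interaction of infarction and time. The adjusted p was 7.41e-09 for Mt1, 3.21e-09 for Mt2, 4.57e-14 for Hmox1, 0.000498 for Nqo1 94350_f_at, 0.000145 for Nqo1 94351_r_at, 0.00295 for Gclc, 0.000127 for Gclm, 1.3e-06 for Txnrd1 and 5.23e-09 for Sod2. The remote effect differed between times for Mt1 (adjusted p = 0.000178), Mt2 (1.42e-05), Hmox1 (4.6e-07) and Sod2 (0.00416). Each time was set against its own sham group, and the sham levels of Mt1, Mt2 and Hmox1 themselves differed between times. No group had the 4 arrays that the check for single outlying arrays needs.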

How the results depend on the processing

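Over all alternatives run, no member value that was called changed its sign. Against the mean of the 6 sham upper times, the count of members called went from 1 to 0 at 1 h and from 1 to 4 at 4 h in both infarct and remote tissue, from 3 to 5 in remote tissue at 24 h, and from 1 to 2 in infarct tissue at 8 weeks. In the fit of only the groups compared, it went from 1 to 2 in infarct tissue at 4 h, from 1 to 0 in infarct tissue at 8 weeks and from 5 to 3 in remote tissue at 48 h, and 48 of 59 member calls were kept. Quantile normalization gave 0 for infarct tissue at 8 weeks, and 94 of 99 member calls were kept. The shares of all probe sets called under the alternatives of this section are not given. The changed counts therefore do not show a result particular to the members.

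Leaving out 1 array at a time gave 0 to 2 members in infarct tissue at 8 weeks (2 without the infarct array highest in Sod2), 0 to 1 in remote tissue at 4 h, 3 to 5 in remote tissue at 48 h, and 0 to 1 for infarct against remote at 8 weeks (1, Sod2, without the same array). For sham against sham at 8 weeks it gave 0 to 1 at 4 h, 0 to 1 at 48 h and 0 to 1 at 1 week. In all, 520 of 594 repeated calls were kept, and 21 others were gained.

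With no replicate block 98 of 99 member calls were kept, and with the title number as a fixed replicate block 18 of 18 were kept and 4 were added. The fixed block for infarct against remote gave 7 members at 24 h for 6 without it. The pairs at 48 h, 1 week and 8 weeks held the correlations above 0.1. Quantile normalization moved the median of all probe sets by -0.20 in infarct and -0.14 in remote tissue at 1 week, and the share of higher calls there from 58.3% to 47.2% and from 54.9% to 44.6%. The share moved from 61.6% to 49.6% for infarct against remote at 1 h. For sham against 8 weeks it moved from 35.6% to 50% at 24 h and from 27.5% to 47% at 1 week, and for sham lower against upper from 57.5% to 45.7%. The offset shrinks the changes of dim probe sets, and 3 arrays a group limit small changes.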
